A study of Homo sapiens with 36 samples.

Results

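The comparison set c42b cells against LNCaP cells, each carrying a control vector. LNCaP is an androgen-dependent human prostate cancer line established from a lymph node metastasis, and c42b is a castration-resistant line derived from it, so that the comparison asks how the transcriptome of the derived line differs from that of its parent. All samples labelled as controls were taken by line and vector label alone, which gave 16 of the 32 samples of the series, 8 of c42b and 8 of LNCaP, read on 17 of the 36 arrays because 1 sample of c42b had a repeat array. In each line, 4 samples carried pLVX_EV, an empty overexpression vector, and 4 carried NT, a non-targeting hairpin; neither was made to alter any gene. These roles follow the labels, which mark pLVX_GABPa as overexpression. The study's methods instead name a pLVX backbone for knockdown and a different one for overexpression. The study describes its GABPA overexpression in these lines as inducible by doxycycline. Whether the pLVX_EV cells read on the arrays received doxycycline is not given in the sources used here. Within each vector, 2 samples had received 1 nM R1881, a synthetic androgen (methyltrienolone), and 2 the ethanol vehicle, after 48 h in charcoal-stripped serum, which is depleted of steroids. The vectors were stably introduced, so that each combination of line and vector was a separately derived population. A figure legend of the study calls the hairpin cells of its xenografts clones. Whether each population read on the arrays was a pool or 1 clone is not given in the sources used here. The study's methods describe biological triplicates for the arrays, whereas the labels give fewer samples per group and do not tie them to separate cultures. All p-values are relative to the spread between these samples alone, part of which may be technical.

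The normal luminal cell of the prostate depends on androgen, the steroid hormone that switches on secretory genes such as the kallikreins and lowers others, among them the enzymes that inactivate androgen. Castration-resistant tumours grow at low androgen levels, and commonly keep androgen-driven genes active while their cell cycle, metabolic and lineage programmes shift. Because c42b descends from LNCaP, the lines share their origin. When and how their differences arose was not tested.

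Intensities of 47231 probes on Illumina HT-12 arrays were converted to log2 and quantile normalized, and every level and difference below is on that log2 scale, a difference being c42b minus LNCaP. Each of 20046 genes was read from its brightest probe. Background was set at 7.80 log2, the level that 95% of 455 olfactory receptor probes did not reach, since most cells outside the nose do not transcribe these genes. A line mean above it was found for 10279 genes. A gene is called higher or lower where the line term of a limma model with line, vector and arm passed an adjusted p of 0.05 (Benjamini-Hochberg over all probes). Median array intensities lay between 178.3 and 225.0 in c42b and between 183.3 and 208.7 in LNCaP, and replicates of a group differed by a median of 0.1 to 0.125 log2 per probe. The luminal prostate markers that the arrays name (8 of 10 listed) were all above background in both lines, and none of the 4 measured basal markers was. Of these 8 luminal markers, 5 were called lower in c42b and 0 higher, where 22.4% of all genes above background were lower. Of 5 markers of androgen receptor-negative prostate lines, VIM, CAV1 and S100A4 were above background in both lines, and AXL and CD44 were not. Of these 5, 1 was called higher in c42b and 0 lower, where 13.0% of all genes were higher and 12.3% lower. The leukocyte, fibroblast and endothelial lists had PTPRC, CD3E, LYZ, COL1A2, DCN, PDGFRB, PECAM1, CDH5, KDR and TEK below background in both lines. Their other measured members, CD14, CD68, COL1A1, COL3A1, LUM and VWF, had a line mean above background, at most 8.2 log2 for all but VWF (8.76 in LNCaP). Of 6 measured fibroblast markers, COL1A1 (0.41) and PDGFRB (0.4) were called higher in c42b. Of 5 endothelial markers VWF was called lower (-1.24), and of 5 leukocyte markers none was called. These counts stand beside the same shares over all genes, 13.0% higher and 12.3% lower. The part of COL1A1, PDGFRB and VWF in other results was not tested. As the arrays measure RNA of whole cultures, fewer cells of a kind and less RNA per cell cannot be told apart.

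Line was the largest source of variation. The first principal component held 36.6% of the variance and placed the c42b samples between -36.7 and -19.2 and the LNCaP samples between 20.4 and 37.6, while the second (17.9%) separated the vectors and the third (7.18%) the arms. Of the 20046 genes, 5084 differed between the lines (25.4%), 2609 higher in c42b (13.0%) and 2475 lower (12.3%). Among the genes above background, 2373 were higher (23.1%) and 2301 lower (22.4%). Most differences were small, with a median size of 0.38 log2 among called genes and a median over all genes of 0.0. At least 1 log2 was reached by 162 genes that were higher and 161 that were lower, and at least 2 log2 by 22 that were higher and 32 that were lower. In 1514 called genes above background (7.55%) the 8 c42b and 8 LNCaP samples did not overlap at all, 705 of them higher and 809 lower in c42b.

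The gene that rose most was PAGE1, a cancer-testis antigen encoded on the X chromosome that normal tissues other than testis and placenta hardly express. It read 12.4 to 13.07 log2 (median 12.7) in c42b and 7.43 to 8.03 (median 7.74) in LNCaP. Every c42b sample was bright, and LNCaP lay at background, so that the difference of 4.98 log2 (SE 0.069, adjusted p = 7.2e-28, limma) is given as at least 30.1-fold against the background level. SLC7A5, the LAT1 transporter of large neutral amino acids, read 11.3 to 12.44 (median 11.91) in c42b and 7.66 to 8.65 (median 8.28) in LNCaP, a rise of 3.71 log2 or 13.0-fold (SE 0.144, adjusted p = 1.9e-17). ASCL2, a basic helix-loop-helix factor known from intestinal stem cells, read 9.99 to 10.81 (median 10.47) in c42b and 6.61 to 7.05 (median 6.91) in LNCaP (difference 3.55, at least 6.24-fold). RBPMS2, an RNA-binding protein of smooth muscle precursors, read 9.9 to 10.6 (median 10.25) in c42b and 6.56 to 7.03 (median 6.92) in LNCaP (difference 3.39, at least 5.56-fold). For none of these genes did a c42b sample come within 2 log2 of a LNCaP sample.

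The next genes belonged to varied functions. AZGP1, the zinc-alpha-2-glycoprotein that prostate epithelium secretes, was higher by 2.99 log2, and ELF5, an ETS factor of secretory epithelium known from the mammary gland, by 2.88, with 10.47 to 10.73 in c42b and 7.42 to 8.06 in LNCaP. A second probe for ELF5 differed by 2.04 log2. RCC1, the exchange factor of the GTPase Ran, was higher by 2.81 log2 on its brightest probe and by 1.59 on another. THBS1 (thrombospondin 1, a matrix glycoprotein) was higher by 2.72, and KDELR3, a receptor that returns chaperones to the endoplasmic reticulum, by 2.60. CT45A3, another cancer-testis antigen, was higher by 2.58, but its probes may also read other members of the near-identical CT45 family. BCAT1, which takes the amino group off branched-chain amino acids, was higher by 2.56, HOXB7, a homeobox factor, by 2.18, and HCFC1, a chromatin-bound cell cycle cofactor, by 2.14, as was TFF2, a trefoil peptide of mucus (2.14). MDK, the growth factor midkine, was higher by 2.51 on its brightest probe, while the 1 other MDK probe above background differed by 0.46 log2. The lower line mean was below background for AZGP1, ELF5, THBS1, KDELR3, CT45A3, BCAT1, HOXB7 and TFF2, so that their folds are lower bounds, between 2.10 (HOXB7) and 7.09 (ELF5).

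The gene that fell most, and by more than any rose, was NTS, the precursor of the peptide neurotensin. It read 7.24 to 7.63 log2 (median 7.47) in c42b and 14.26 to 15.14 (median 14.72) in LNCaP. All 8 c42b samples were below background where LNCaP was near the top of the scale, and the difference of -7.26 log2 (SE 0.082, adjusted p = 9.4e-30, limma) stands for at least 123-fold. A second NTS probe was below background in both lines. TMEFF2, a membrane protein with follistatin domains that is rich in prostate and brain, read 7.86 to 10.05 (median 9.17) in c42b and 13.24 to 14.1 (median 13.92) in LNCaP, a difference of -4.69 log2 with wide spread in c42b. RLN1 and RLN2, the relaxin hormone genes that lie next to each other on chromosome 9, were lower by 4.47 and 2.90 log2. RLN1 read 7.63 to 8.44 in c42b and 11.96 to 12.82 in LNCaP, and the near-identity of this pair means that a probe may read both. SYT4, a synaptotagmin of secretory vesicles, read 9.99 to 10.85 in c42b and 13.47 to 14.2 in LNCaP (-3.57). ACP3, prostatic acid phosphatase, read 9.13 to 10.11 in c42b and 12.32 to 13.55 in LNCaP (-3.37). GASK1B, a Golgi-associated kinase-like protein (-3.59), SLITRK3, a synaptic adhesion protein (-2.93), and EFNB2, the ligand ephrin-B2 (-2.81), were also lower.

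**Figure D1:**
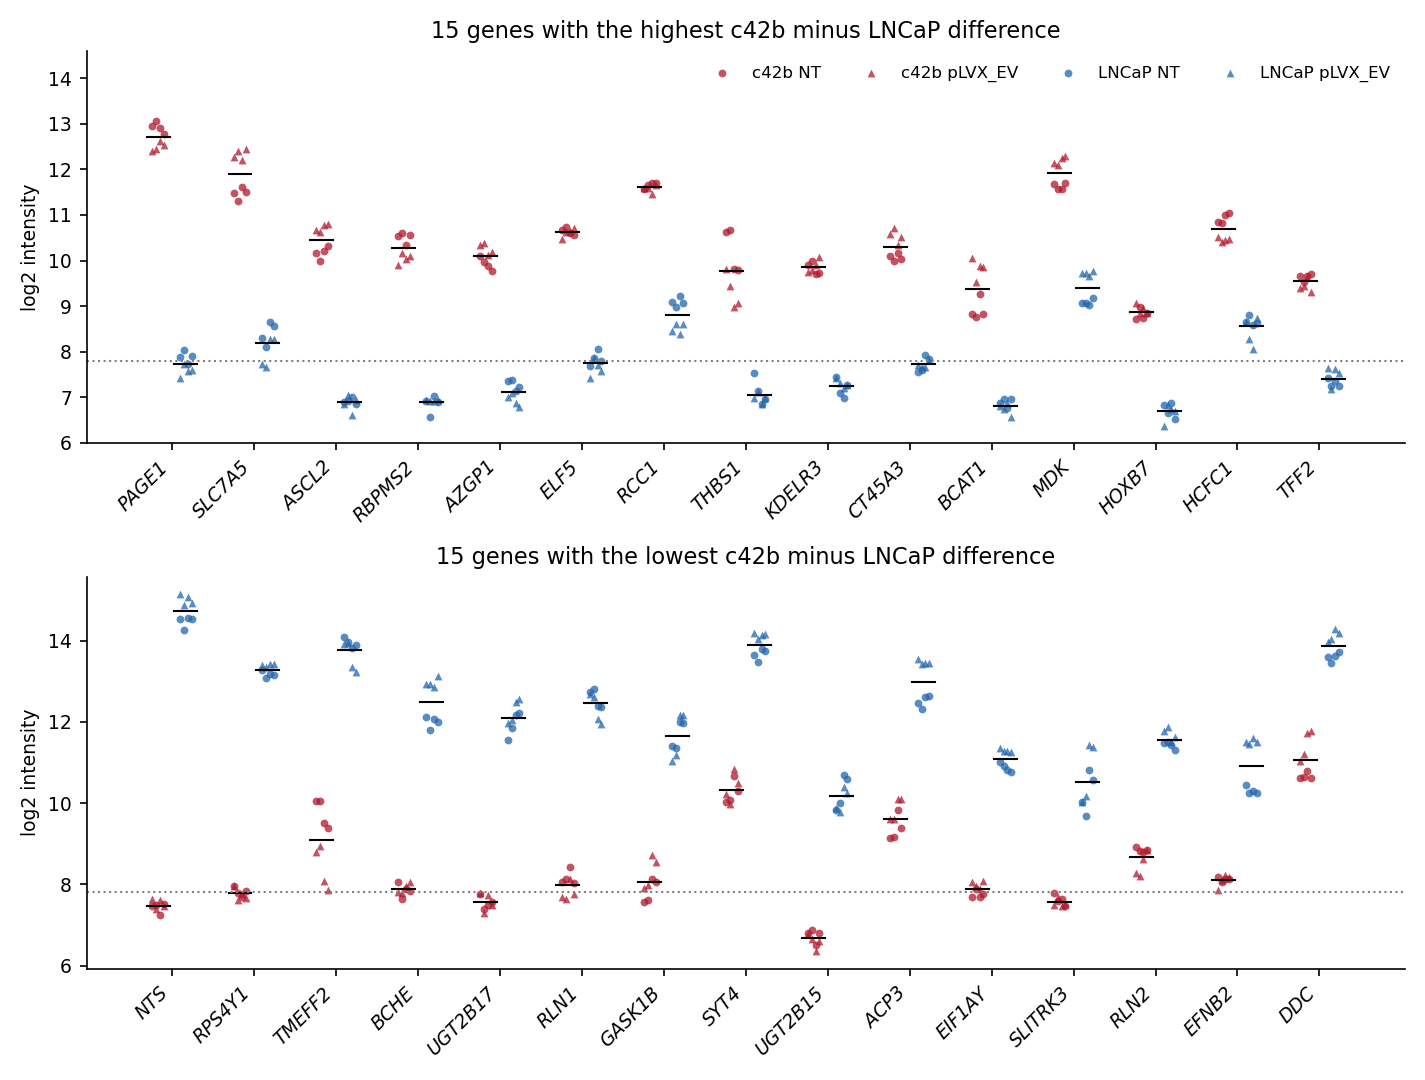
Log2 intensity of the 15 genes with the highest (top) and the 15 with the lowest (bottom) c42b minus LNCaP difference, 1 point per sample with c42b left of LNCaP, circles for NT and triangles for pLVX_EV, black bars for line means and a dotted line at the background of 7.80. The genes were chosen among called genes above background whose 8 c42b samples lie apart from the 8 of LNCaP, so the separation is a condition of the choice. In 16 of the 30 genes the dimmer line has its mean below background.

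These 30 genes were called in the same direction in pLVX_EV and in NT cells when each was compared on its own. Their choice required that no c42b sample overlap a LNCaP sample. This fixed the direction within each vector in advance, so the calls say nothing independent about agreement between the vectors. In the 16 samples of the series that carried a GABPA overexpression vector or a GABPA hairpin, a comparison chosen after the data were seen, all 30 were again called in the same direction. There, 5008 genes were called in all, and of the 5084 genes called in the control samples 3979 were called the same way and 3 the opposite way. These samples are of the same lines but do not share arrays with the controls.

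Androgen-repressed genes fell together. Of 21 measured members of the list, 15 were lower and 3 higher in c42b, with a median difference of -1.01 log2, where 12.3% of all genes were lower and the median of all genes was 0.0. UGT2B17 and UGT2B15 are enzymes that couple glucuronic acid to androgens. UGT2B17 read 7.3 to 7.79 (median 7.53) in c42b and 11.56 to 12.56 (median 12.1) in LNCaP, at least 19.8-fold lower (-4.54 log2, SE 0.095, adjusted p = 1.4e-23, limma). UGT2B15 read 6.36 to 6.87 (median 6.71) in c42b and 9.78 to 10.7 (median 10.12) in LNCaP, at least 5.17-fold lower (-3.5 log2, SE 0.104, adjusted p = 3.8e-20). In c42b both enzymes were thus below background in every sample and in both arms. Their sequences are similar, so that the probes may read each other's transcript.

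BCHE, the butyrylcholinesterase that splits choline esters, read 7.63 to 8.05 (median 7.85) in c42b and 11.81 to 13.14 (median 12.48) in LNCaP, a difference of -4.6 log2, and its second probe fell by 3.98. DDC, which makes dopamine and serotonin from their precursors, read 10.61 to 11.78 (median 10.91) in c42b and 13.44 to 14.3 (median 13.84) in LNCaP (-2.81). TFPI, the inhibitor of the tissue factor pathway of clotting, was lower by 1.93, and OPRK1, the kappa opioid receptor, by 1.60. The list's name did not describe each member in these cells. In LNCaP, BCHE averaged 11.96 with R1881 and 12.02 with ethanol in NT cells, and 12.94 and 13.0 in pLVX_EV cells. For TFPI these averages were 11.79 and 11.58, and 12.54 and 12.56. UGT2B17 was lower with R1881, at 11.7 against 12.19 and 12.01 against 12.53. The list was lower in c42b in both vectors, with medians of -1.09 log2 in pLVX_EV and -0.96 in NT. Single members depended on the vector. In a test of whether the line difference departs between the vectors, 9 of the 21 passed, where 6.76% of all genes did. The c42b minus LNCaP difference was higher in pLVX_EV for 4 of these and lower for 5. Over the wider steroid metabolism list, 9 of 36 measured members were lower and 2 higher (8 and 2 of the 19 above background), with a median of -0.02, and 5 of the 9 were UGT2B enzymes. The shares over all genes were 12.3% lower and 13.0% higher, and 22.4% and 23.1% among those above background.

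Androgen-induced genes moved both ways. Of 39 measured, 7 were higher and 12 lower, where 13.0% of all genes were higher and 12.3% lower, and the median was -0.02 log2 (0.01 with median centring). Among the 35 above background 6 were higher and 12 lower, where the shares over all such genes were 23.1% and 22.4%. KLK3, which encodes prostate-specific antigen, read 9.22 to 10.79 (median 9.99) in c42b and 8.41 to 10.66 (median 9.77) in LNCaP. The samples overlapped and the difference of 0.38 did not pass (adjusted p = 0.054, limma). KLK2, its neighbour on chromosome 19, differed by 0.17 (adjusted p = 0.39), and FKBP5, a co-chaperone of steroid receptors, by 0.23 (adjusted p = 0.08). In the samples with the GABPA vectors KLK2 and KLK3 passed as higher in c42b, by 0.99 and 0.67. SLC45A3 (prostein) was lower by 1.26, STEAP2, a metalloreductase, by 0.80, and TMPRSS2, a membrane serine protease, by 0.41 (adjusted p = 0.04). The TMPRSS2 call was lost without any 1 of the 8 R1881 samples or without replicate 2 of the ethanol-treated c42b NT cells (-0.31 to -0.41), and in the samples with the GABPA vectors the difference was 0.05. PLPP1, a lipid phosphatase, was higher by 1.04 on its brightest probe and by 1.02 and 1.03 on the others. TSC22D3, a glucocorticoid-induced regulator, was higher by 0.97 over both vectors, with 1.91 in pLVX_EV and 0.04 in NT (adjusted p = 0.9 in NT, limma). Not every member of the list was higher with R1881 in these cells. In LNCaP, TSC22D3 averaged 10.47 with R1881 and 11.15 with ethanol in NT cells, and 10.34 and 11.1 in pLVX_EV cells. In c42b these averages were 10.46 and 11.25, and 12.51 and 12.75. For STEAP2 the LNCaP averages were 12.31 and 12.29, and 12.81 and 12.91.

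The effect of line on some androgen-induced genes depended on the arm. In a test of whether the line difference with R1881 departs from that with ethanol, 46 genes passed (0.229%), and 9 of the 39 androgen-induced genes were among them. In all 9 the c42b minus LNCaP difference was lower with R1881 than with ethanol. TMPRSS2 averaged 12.89 log2 in pLVX_EV and 11.86 in NT cells of c42b with R1881, against 13.57 and 13.1 in LNCaP. With ethanol the same averages were 11.55 and 10.18 in c42b and 11.14 and 10.3 in LNCaP. The line difference was thus -0.96 with R1881 and 0.15 with ethanol (interaction -1.11, adjusted p = 7.7e-05, limma). For KLK3 the line differences were 0.01 with R1881 and 0.75 with ethanol (interaction -0.74, adjusted p = 0.013), and for KLK2 -0.20 and 0.53 (-0.72, adjusted p = 0.011). PLPP1 showed 0.61 with R1881 and 1.48 with ethanol (-0.87, adjusted p = 0.0044).

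The smallest p-values of this test belonged to ORM1 and FOS. ORM1, an acute phase glycoprotein of plasma, averaged 7.48 in pLVX_EV and 7.77 in NT cells of c42b with R1881, against 9.65 and 8.99 in LNCaP, while with ethanol all averages lay between 7.12 and 7.32. Its averages were above background only in LNCaP with R1881 (line difference -1.69 with R1881 and 0.15 with ethanol, adjusted p = 1.8e-06). Its close paralog ORM2 followed it, with -1.38 and 0.15. TRIM51, a tripartite motif protein, was lower in c42b by 2.39 with R1881 and by 0.98 with ethanol. FOS, an immediate early transcription factor, rested on 1 group: the ethanol-treated pLVX_EV samples of LNCaP read 9.6 and 10.02, and all 14 others 6.59 to 7.21, below background. Before adjustment, 1278 genes (6.38%) had a p under 0.05 in this test.

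Genes of mitosis were higher as a group, but by an amount that depended on the vector. Of 58 measured, 46 were higher in c42b and 0 lower by limma (also 0 at an unadjusted p under 0.05), with a median difference of 0.52 log2, where 13.0% of all genes were higher. In the samples with the GABPA vectors 29 were higher and 1 lower, with a median of 0.22. The line difference was tested in each vector alone, where 4106 genes passed in pLVX_EV (20.5%) and 4120 in NT (20.6%), and a test of the difference between vectors called 1355 genes (6.76%). In pLVX_EV cells 10 mitosis genes were higher and 1 lower with a median of 0.07, and in NT cells 54 were higher with a median of 1.05. The difference between vectors passed for 47 of the 58, each smaller in pLVX_EV. TOP2A, the DNA topoisomerase of dividing cells, averaged 7.67 with R1881 and 7.70 with ethanol in pLVX_EV cells of c42b, against 7.37 and 7.39 in LNCaP. In NT cells it averaged 10.67 and 10.9 in c42b, against 8.79 and 9.04 in LNCaP. The line difference was 0.30 in pLVX_EV and 1.87 in NT (interaction -1.57, adjusted p = 8.3e-07, limma). Its pLVX_EV averages were below background in both lines, so that the 0.30 may understate the difference there.

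CKS1B, a small subunit of the cyclin-dependent kinases, was the member with the largest difference and kept it in both vectors, at 0.93 in pLVX_EV and 1.36 in NT. It read 10.62 to 12.06 (median 11.3) in c42b and 9.63 to 10.76 (median 10.1) in LNCaP, with an overlap between c42b samples carrying pLVX_EV and LNCaP samples carrying NT. AURKB, the kinase of the chromosomal passenger complex, showed 0.32 and 1.68 in pLVX_EV and NT. CENPM, a centromere protein, showed 0.57 and 1.62, and SMC4, a condensin subunit, 0.52 and 1.44. In pLVX_EV cells of both lines AURKB averaged below background, whereas CENPM and SMC4 averaged above it. Genes of DNA replication followed the same order, with 30 of 57 higher and 1 lower (ORC3, named after its value was seen), a median of 0.34 (0.18 in the samples with the GABPA vectors), and medians of 0.11 in pLVX_EV and 0.59 in NT. Over all genes 13.0% were higher and 12.3% lower. RFC4 and RFC3, subunits of the clamp loader, were higher by 1.07 and 1.01, and MCM3, a helicase subunit, by 0.82. TYMS, thymidylate synthase, did not pass over both vectors (0.37, adjusted p = 0.092), with -0.29 in pLVX_EV and 1.03 in NT.

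Levels by population show how the vectors enter. As the median deviation of the mitosis genes from their means over the 16 samples, c42b pLVX_EV samples lay at -0.74 to -0.57 and LNCaP pLVX_EV samples at -0.83 to -0.69, while c42b NT samples lay at 1.21 to 1.32 and LNCaP NT samples at 0.06 to 0.21. The NT cells of c42b were thus apart from the 3 other populations, and the pLVX_EV cells of both lines were low. Each combination of line and vector was 1 derived population, so a difference between vectors cannot be told apart from one between the populations that carried them.

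**Figure D2:**
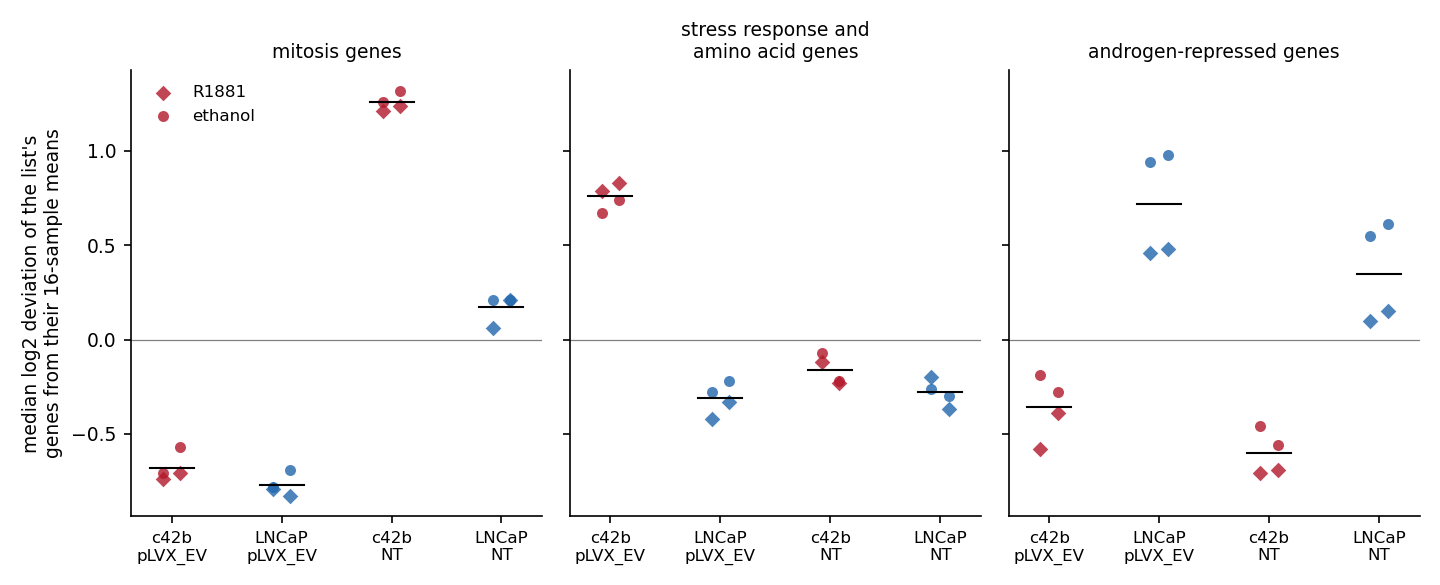
Median log2 deviation of each list's genes from their means over the 16 samples, for mitosis genes, stress response and amino acid genes, and androgen-repressed genes, with 1 point per sample (diamonds R1881, circles ethanol) and a bar for each mean. Mitosis genes are high in c42b NT cells (mean 1.26), stress response genes in c42b pLVX_EV cells (mean 0.76), and androgen-repressed genes are below their overall mean in c42b with both vectors (-0.36 in pLVX_EV and -0.6 in NT).

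Promoters of the mitosis genes are shown because so many of them moved together. Mitotic genes are known to share a cell cycle homology region, TTTGAA, near their start. In the 250 bases before the start, TTTGAA was present on either strand in 26 of the 49 mitosis promoters found in the RefSeq table (53.1%), against 13.6% of all 27305 promoters, 1 of 50 DNA replication promoters and 2 of 36 stress response promoters (5.56%). Of the 26 genes with a match, 21 were higher in c42b with a median of 0.52 log2, and of the 23 without, 16 were higher with a median of 0.42. Capitals mark TTTGAA or its complement TTCAAA in these promoters, 5′ to 3′ in the direction of the gene, from RefSeq on GRCh38.p14: CKS1B at chr1:154974431-154974680 (plus strand), TOP2A at chr17:40417897-40418146 (minus strand) and SMC4 at chr3:160399400-160399649 (plus strand). A match describes the letters and is not evidence of a site in use.
CKS1B: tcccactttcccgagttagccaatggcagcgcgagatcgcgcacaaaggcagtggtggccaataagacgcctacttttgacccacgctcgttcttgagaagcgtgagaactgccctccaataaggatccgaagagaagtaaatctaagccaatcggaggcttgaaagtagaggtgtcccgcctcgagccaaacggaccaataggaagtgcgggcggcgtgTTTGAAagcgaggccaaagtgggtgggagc
TOP2A: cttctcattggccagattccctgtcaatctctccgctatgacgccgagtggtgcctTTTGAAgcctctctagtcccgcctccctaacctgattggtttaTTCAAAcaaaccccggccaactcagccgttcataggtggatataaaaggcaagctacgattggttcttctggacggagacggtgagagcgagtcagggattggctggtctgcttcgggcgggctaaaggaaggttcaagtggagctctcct
SMC4: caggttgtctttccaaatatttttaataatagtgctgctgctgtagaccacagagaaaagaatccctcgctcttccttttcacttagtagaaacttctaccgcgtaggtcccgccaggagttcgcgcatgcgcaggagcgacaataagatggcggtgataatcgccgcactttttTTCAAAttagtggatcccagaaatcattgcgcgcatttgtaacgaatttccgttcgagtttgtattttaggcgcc

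Genes of the integrated stress response and of amino acid supply were higher as a group, and here too the vectors differed, in the opposite order. The response is set off when kinases that sense amino acid shortage or misfolded protein slow translation, and its factor ATF4 raises transporters, synthetases and enzymes of amino acid synthesis. Of 43 measured members 32 were higher and 1 lower (NUPR1, named after its value was seen), with a median of 0.53 log2, where 13.0% of all genes were higher. In pLVX_EV cells 37 were higher and 0 lower by limma (0 at an unadjusted p under 0.05), and the median was 1.01. In NT cells 9 were higher and 6 lower, and the median was 0.03. The difference between vectors passed for 36 genes, each larger in pLVX_EV. SLC7A5, described above, was the exception in size, with line differences of 4.34 in pLVX_EV and 3.07 in NT.

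SLC7A1, the transporter of cationic amino acids, read 11.33 to 12.83 (median 12.05) in c42b and 10.3 to 10.55 (median 10.4) in LNCaP without overlap, with line differences of 2.25 in pLVX_EV and 1.07 in NT. CTH, which makes cysteine from cystathionine, showed 2.43 and 0.64, and MTHFD2, a mitochondrial enzyme of folate-linked carbon transfer, 1.92 and 0.46. ASNS, asparagine synthetase, read 12.43 to 13.97 (median 13.3) in c42b and 11.95 to 12.57 (median 12.21) in LNCaP. Its line differences were 1.76 in pLVX_EV and 0.29 in NT (interaction 1.46, adjusted p = 3.2e-07, limma). TRIB3, a pseudokinase that ATF4 induces, was higher in c42b by 1.94 in pLVX_EV and lower by 0.42 in NT. Over both vectors it passed at 0.76 (adjusted p = 0.026) but lost the call without any 1 of the 8 pLVX_EV samples (0.62 to 0.7).

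The ASNS promoter is printed because its amino acid response is a standard example of a C/EBP-ATF response element, which has the letters TGATGNAA with N for any base. Searched on both strands of the 250 bases before the start, TGATGNAA was found in 6 of 36 stress response promoters (16.7%), against 3.19% of all promoters, 2.04% of mitosis promoters and none of the 50 DNA replication promoters searched. Among the 36, 3 of the 6 genes with a match were higher in c42b and 25 of the 30 without. Capitals mark the match, at 68 bases before the start of ASNS (RefSeq, GRCh38.p14, chr7:97872409-97872658, minus strand).
ASNS: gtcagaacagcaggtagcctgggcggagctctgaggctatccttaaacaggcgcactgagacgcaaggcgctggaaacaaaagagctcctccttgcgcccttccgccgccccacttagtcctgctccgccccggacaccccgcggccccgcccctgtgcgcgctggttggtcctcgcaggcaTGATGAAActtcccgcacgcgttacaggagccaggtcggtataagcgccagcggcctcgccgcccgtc

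Genes of the endoplasmic reticulum had 15 of 33 higher and 4 lower (20 and 0 in the samples with the GABPA vectors), with medians of 0.28 in pLVX_EV and 0.04 in NT. Over all genes 13.0% were higher and 12.3% lower. The same 15 and 4 were among the 28 above background, where the shares over all such genes were 23.1% and 22.4%. XBP1, a factor of the unfolded protein response, was higher by 0.75 and PDIA4, a disulfide isomerase, by 0.81. The test between vectors called 677 genes with a larger and 678 with a smaller line difference in pLVX_EV, and 852 of these 1355 were also called between the lines. PHLDA1, a pleckstrin homology protein induced by growth signals, went opposite ways. It averaged 7.84 and 8.12 in pLVX_EV cells of c42b with R1881 and with ethanol, against 9.52 and 9.23 in LNCaP, and in NT cells 10.28 and 10.36 in c42b, against 8.23 and 8.52 in LNCaP (line difference -1.39 in pLVX_EV and 1.95 in NT, interaction adjusted p = 1.5e-12, limma). SNAR-A1, a small noncoding RNA with many near-identical copies, showed -1.21 and 1.19, and DDIT4, a stress-induced inhibitor of mTOR signalling, 1.36 and -0.52. VWF, the von Willebrand factor of endothelium, showed -0.02 in pLVX_EV and -2.45 in NT. It was above background in LNCaP NT cells, where the endothelial markers PECAM1, CDH5, KDR and TEK were not.

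**Figure D3:**
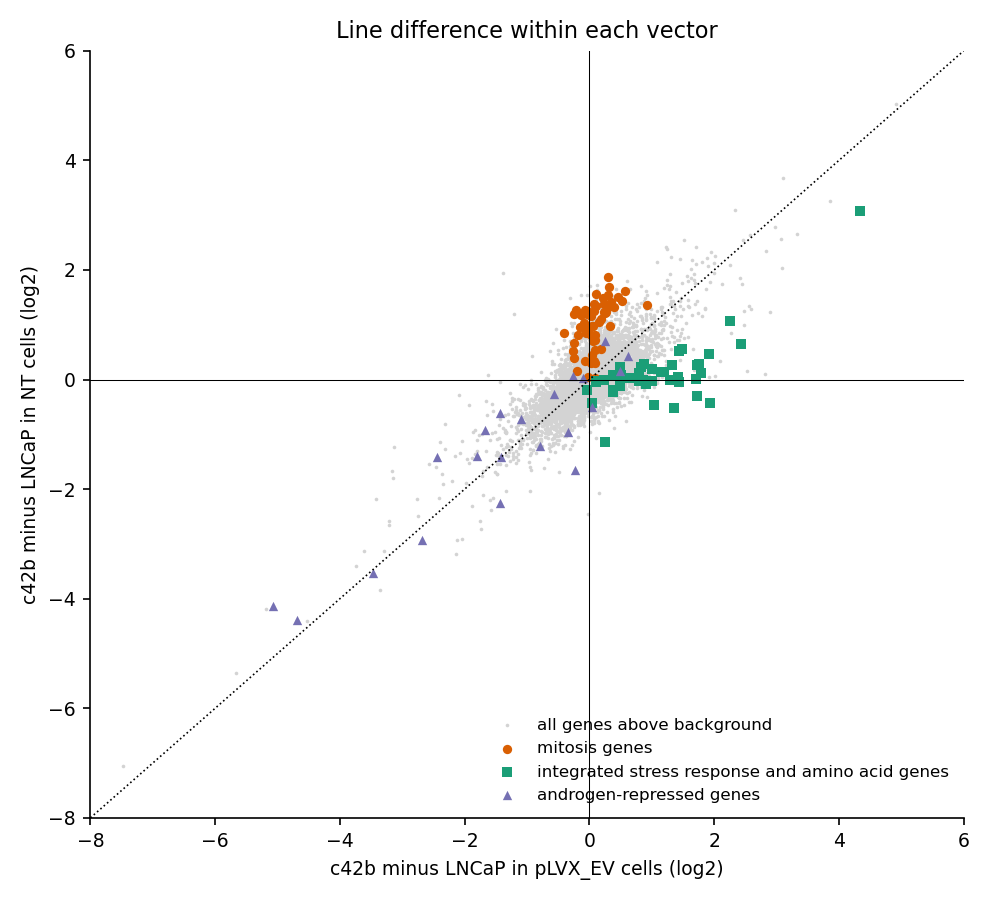
Line difference (c42b minus LNCaP, log2) in pLVX_EV cells on the horizontal and in NT cells on the vertical axis, for genes above background (grey) and 3 lists, with the line of equality dotted. Over the genes above background the Pearson correlation is 0.75. Most mitosis genes lie above the line of equality, stress response genes below it, and androgen-repressed genes on both sides of it.

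Over all genes, 2404 were called in both vectors, 2313 of them in the same direction and 91 in opposite directions. Of the 5084 genes called between the lines, 118 had opposite signs in the vectors.

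Genes of the Y chromosome were lower or not called. Of 16 measured members of the list, 9 were lower and 0 higher by limma (0 at an unadjusted p under 0.05). Their median was -0.41 log2, and 6 of the 16 had a line mean above background. Of all 13 genes above background placed on the Y chromosome, 9 were lower (69.2%) and 0 higher, and the rest were not called. Among all genes above background 22.4% were lower. Over all genes 12.3% were lower and 13.0% higher. RPS4Y1, a ribosomal protein gene, read 7.61 to 7.97 (median 7.77) in c42b and 13.08 to 13.43 (median 13.32) in LNCaP, at least 44.9-fold lower (-5.5 log2, SE 0.072, adjusted p = 2.7e-28). EIF1AY, a translation initiation factor, read 7.69 to 8.09 (median 7.88) in c42b and 10.77 to 11.37 (median 11.13) in LNCaP (-3.21). RPS4Y2 (-2.05) and KDM5D, a histone demethylase (-1.03), were also lower without overlap, and their c42b means were below background. USP9Y, a deubiquitinase, was lower by 0.94 but below background in both lines. RPS4Y1 and EIF1AY, bright in LNCaP, were thus near background in c42b whichever vector the cells carried. RPS4Y1 and RPS4Y2 are similar, so that a probe for the second may read the first.

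Cancer-testis antigens, many of them X-linked and silenced by DNA methylation in most tissues, had 21 of 65 measured members higher and 6 lower, with a median of 0.04, where 13.0% of all genes were higher and 12.3% lower. Besides PAGE1 and CT45A3, CTAG2 was higher by 1.82 (at least 2.26-fold) and CT45A5 by 1.47. MAGEA4 went the other way, with 7.34 to 7.7 (median 7.5) in c42b and 9.24 to 10.69 (median 10.03) in LNCaP (-2.47, at least 4.55-fold lower). CTAG2 showed 1.25 in pLVX_EV and 2.39 in NT, and MAGEA4 -3.15 and -1.79. The higher members included 8 of the GAGE family whose copies are near-identical, so that their number overstates the separate genes. In these 8, named after their values were seen, the line difference was -0.13 (GAGE12C) to 0.19 (GAGE2A) in pLVX_EV and 0.91 (GAGE4) to 1.37 (GAGE2A) in NT.

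**Figure D4:**
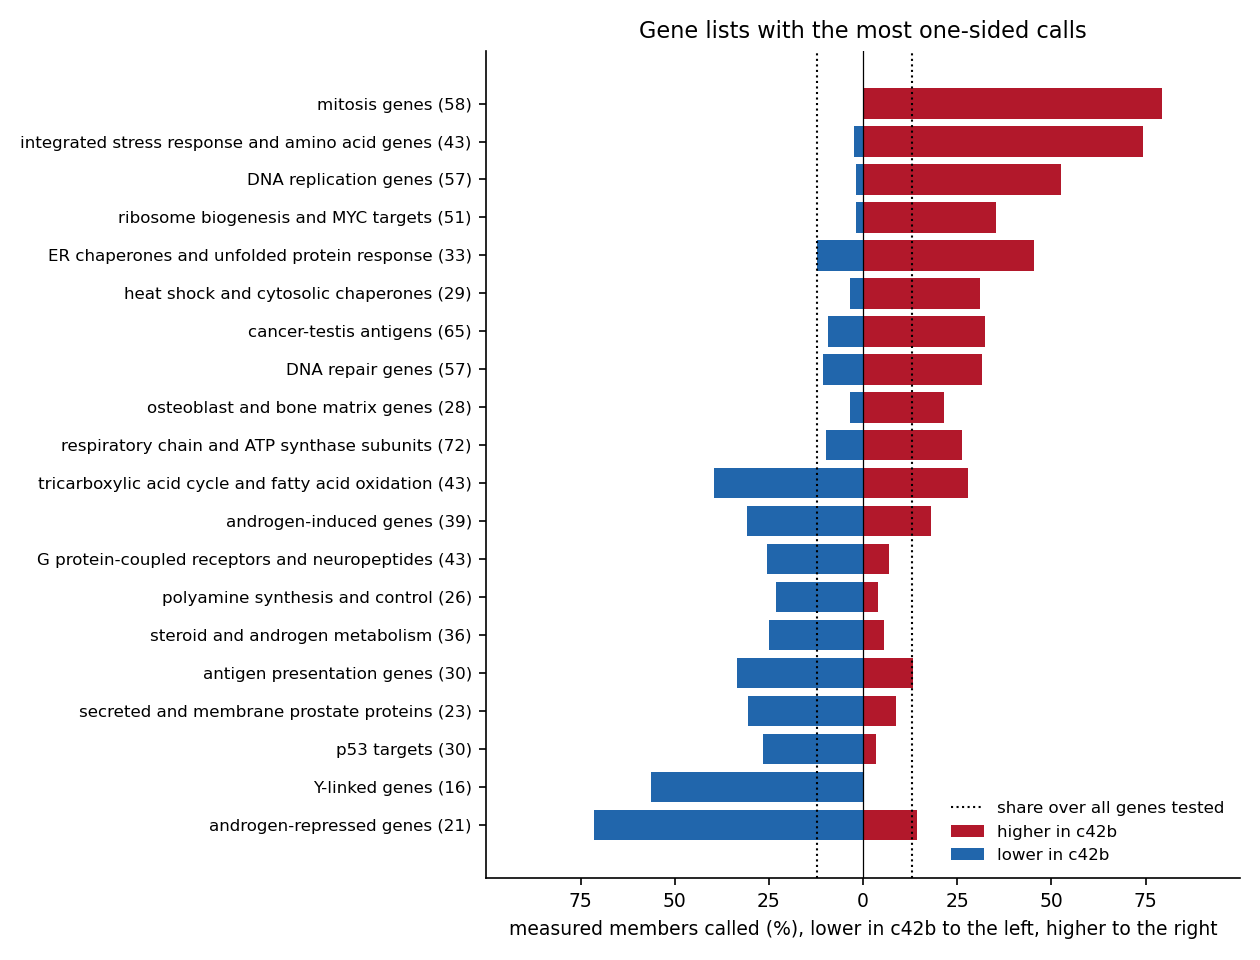
Percentage of measured members called higher (right) and lower (left) in c42b for the 10 lists with the most calls in each direction relative to the other, with the number measured in brackets and the share over all genes tested dotted (13.0% higher and 12.3% lower). Mitosis, stress response and DNA replication genes lean to the right, androgen-repressed and Y-linked genes to the left.

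Targets of p53 had 8 of 30 lower and 1 higher, with a median of -0.01, where 12.3% of all genes were lower. All 9 were among the 25 targets above background, where the lower share over all such genes was 22.4%. SESN1, a sestrin that restrains mTOR signalling, read 9.14 to 10.02 (median 9.61) in c42b and 10.83 to 11.53 (median 11.16) in LNCaP without overlap (-1.6, adjusted p = 3.4e-15, limma). TP53INP1, a stress-induced nuclear protein, was lower by 1.29 and by 1.04 on its second probe. CDKN1A, the cyclin-dependent kinase inhibitor p21, was lower by 0.80, with -0.39 in pLVX_EV and -1.2 in NT. GDF15, a stress cytokine, was lower by 0.96 over both vectors, with 0.16 in pLVX_EV and -2.08 in NT. The member that was higher was TP53I3, a quinone oxidoreductase, by 1.07.

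The list of TGF-beta and bone morphogenetic protein (BMP) genes had 11 of 48 higher and 3 lower, with a median of 0.03, where 13.0% of all genes were higher. Among its 26 members above background 10 were higher, against 23.1% of all such genes, and its higher members included a pair of BMP ligands and the ID genes. BMP7 read 8.2 to 8.73 (median 8.6) in c42b and 6.53 to 6.82 (median 6.71) in LNCaP, without overlap. BMP6 read 8.12 to 8.51 (median 8.38) in c42b and 6.79 to 7.16 (median 7.04) in LNCaP, also without overlap. Both ligands were below background in LNCaP, and higher in c42b by at least 1.64-fold and 1.47-fold. ID1, an inhibitor of DNA binding that BMP signals induce, was higher by 1.82 log2, with 1.22 in pLVX_EV and 2.42 in NT, and ID3 by 1.15, with 0.65 and 1.65. ID3 differed by -0.06 in the samples with the GABPA vectors, where ID1 differed by 0.41. LTBP3, which binds latent TGF-beta in the matrix, was higher by 1.40.

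Of 43 measured G protein-coupled receptors and neuropeptides 11 were lower and 3 higher, with a median of -0.06, and of 26 neuroendocrine markers 6 were lower and 3 higher, where 12.3% of all genes were lower. Above background, 11 of 20 and 5 of 8 were lower, against 22.4% of all such genes. ADGRG6, an adhesion receptor, read 7.96 to 8.63 (median 8.27) in c42b and 10.5 to 11.09 (median 10.76) in LNCaP (-2.53), and OR51E1, an olfactory-type receptor known in prostate, was lower by 1.41. S1PR3, a receptor of sphingosine 1-phosphate, was higher by 1.20. Among the neuroendocrine markers NTS, SYT4 and DDC fell as given above and ENO2, the neuronal enolase, fell by 1.56, whereas VGF, a secreted neuropeptide precursor, was higher by 2.04 (9.79 to 10.33 in c42b and 7.91 to 8.13 in LNCaP).

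Antigen presentation genes had 10 of 30 lower and 4 higher, with a median of -0.08, where 12.3% of all genes were lower and 13.0% higher. All 10 were among the 19 above background, against a lower share of 22.4% there. HLA-DMB, which loads peptides onto class II molecules, was lower by 1.98 (at least 3.41-fold), and the proteasome activator subunits PSME2 and PSME1 were lower by 1.15 and 0.79, all without overlap. HLA-E and MICA, both ligands of natural killer cell receptors, were higher by 0.60 and 0.59. Ribosome biogenesis genes and MYC targets had 18 of 51 higher and 1 lower, with a median of 0.11 (17 of the 46 above background higher, against 23.1% of all such genes), while MYC itself did not pass (-0.19, adjusted p = 0.15, limma). TFRC, the transferrin receptor, was higher by 0.89, NOLC1, a nucleolar chaperone, by 0.56, and DDX21, an RNA helicase, by 0.53. NOP2, a methyltransferase of ribosomal RNA, was higher by 0.46 and HSPD1, a mitochondrial chaperonin, by 0.47.

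Genes of the citric acid cycle and fatty acid oxidation moved both ways, with 12 of 43 higher and 17 lower and a median of -0.02. All 29 were among the 40 above background, where the shares over all such genes were 23.1% and 22.4%. AMACR, a racemase of branched fatty acids used as a prostate cancer marker, read 9.01 to 9.65 (median 9.43) in c42b and 10.47 to 11.49 (median 11.02) in LNCaP (-1.58). ACAA1, a peroxisomal thiolase, was lower by 0.94, and ME1, the cytosolic malic enzyme, higher by 1.03. Genes of polyamine control had 6 of 26 lower and 1 higher, and 6 of the 22 above background were lower, near the 22.4% of all such genes. SAT1, which acetylates spermidine and spermine, was lower by 1.01.

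The genes named next, which bear on the study's subject, mostly gave small differences, unlike the androgen-repressed genes above. GABPA, the DNA-binding subunit of the ETS factor GABP, read 7.78 to 8.34 (median 8.07) in c42b and 7.88 to 8.31 (median 8.03) in LNCaP, a difference of -0.01 (SE 0.077, adjusted p = 0.96, limma), and GABPB1, its partner subunit, was higher by 0.41. Other probes for GABPB1 differed by between -0.08 and 0.23. FOXA1 and HOXB13, lineage factors of the prostate epithelium, were lower by 0.28 and 0.60. FOLH1, the prostate-specific membrane antigen, did not pass (-0.34, adjusted p = 0.07), but its second probe did (-0.53). EZH2, a histone methyltransferase, was higher by 0.37 and VIM, the mesenchymal filament vimentin, by 1.06, and CDH1, E-cadherin, was lower by 0.51. EGFR, the epidermal growth factor receptor, did not pass (-0.01, adjusted p = 0.98), but another of its probes did (0.46, adjusted p = 1.3e-05, limma). ERG, CDH2 and ETV1 had no line mean above background. ETV1 was read from 1 probe, at 6.59 in c42b and 6.88 in LNCaP, and was called lower at that level (-0.29, adjusted p = 0.0039, limma). With 1 dim probe, whether the cells expressed ETV1 cannot be told.

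Differences were uneven along the genome. Among genes above background, chromosome 16 had 221 of 480 lower (46.0%) and 34 higher (7.08%), with a median of -0.18 log2 in each vector. The opposite held for chromosome 22, with 110 of 260 higher (42.3%) and 27 lower (10.4%, median 0.15), and for chromosome 7, with 198 of 495 higher (40.0%) and 59 lower (11.9%, median 0.11). On chromosome 4, 133 of 370 were lower (35.9%) and 58 higher (15.7%, median -0.09). Chromosome 21 had 40 of 112 lower (35.7%) and 16 higher (14.3%, median -0.1), and chromosome 18 had 47 of 144 lower (32.6%) and 21 higher (median -0.07). On the remaining autosomes medians ran from -0.08 to 0.06. In the samples with GABPA vectors the medians of chromosomes 16, 22, 7, 4, 21 and 18 were -0.16, 0.16, 0.12, -0.12, -0.04 and -0.07.

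**Figure D5:**
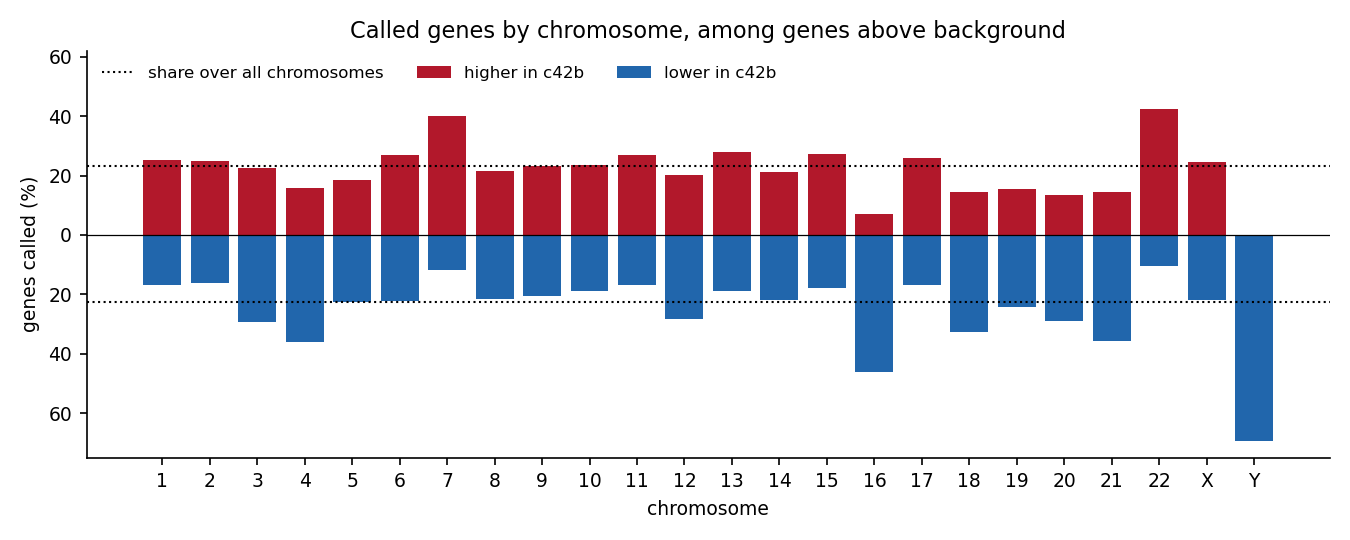
Percentage of genes above background called higher (up) and lower (down) in c42b, by chromosome, with the shares over all chromosomes dotted (23.1% higher and 22.4% lower). Chromosomes 7 and 22 stand out upward, and chromosomes 16, 4, 21 and 18 downward, as does Y, which has 13 such genes.

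Along each chromosome, the median was also taken over 651 windows of 30 neighbouring genes above background, each moved on by 15 genes. Window medians ran from -0.35 to 0.47. The highest window lay on chromosome 13 between MICU2 and USPL1 (18 of 30 higher, 1 lower), with the next one at RASL11A to UFM1 (median 0.43). Others lay on chromosome 3 between HGD and SNX4 (0.34), on chromosome 7 between FZD1 and ATP5MF (0.32) and on chromosome 22 between PI4KAP2 and LRRC75B (0.29, 19 higher). The lowest lay at the start of chromosome 3 between IL5RA and TATDN2 (-0.35, 21 of 30 lower), on chromosome 19 between ZNF471 and RNF225 (-0.34, 20 lower), and on chromosome 16 between GLG1 and HSDL1 (-0.34, 16 lower). The DNA of the cells was not measured on these arrays, and whether gene copies differ there was not tested.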

How the data were processed

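The authors deposited linear bead-summary intensity values of Illumina Human HT-12 version 4 arrays, after removal of spatial artefacts with BASH and HULK (beadarray; versions not given in the sources used here), and a second table of log2 values that they had quantile normalized over the 36 arrays. The intensities, of which 94 were missing, were here converted to log2 and quantile normalized over all arrays, which departed from the deposited log2 table by at most 0.152, and the repeat array was averaged with its sample. Of 47231 probes, 30113 named 1 gene, 8 several and 17110 none in the platform annotation; genes without such a probe were not analysed here. Each gene was read from its brightest probe.

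Differences were tested with limma 3.58.1 in R 4.3.3, with line, vector and arm as terms over the 16 samples, and interactions and within-vector or within-arm differences with 1 mean for each of the 8 groups. P-values were adjusted by Benjamini-Hochberg over all probes of each comparison, with a threshold of 0.05, and the model was tested on simulated data. A fold given as at least N takes the background, 7.80 log2, as the level of the dimmer line where that is higher. Named were the 15 highest and 15 lowest called genes above background without overlap, up to 5 called members of a list, genes bearing on the study's subject and 5 genes of each interaction, with a selection of these described. The comparison, the 50 gene lists and the tests were chosen with earlier results of these data known, so counts over a list describe it and support nothing independently. Promoters were the 250 bases before the start of 27305 genes in RefSeq (GRCh38.p14). Alternatives covered the replicate block, a random block for line and vector, other covariates, all 32 samples, normexp, median centring, quantile normalization over the control arrays, the authors' log2 table, the repeat array, brighter probes, any probe of a gene, a size limit, leaving out each sample and, added after the data were seen, the samples with GABPA vectors and counts among genes above background.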

Additional observations from a re-analysis of the deposited data

Results flagged for a closer look

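For many of the genes described above, the c42b minus LNCaP difference itself differed between the vectors by the interaction test of limma. The values in brackets are the line difference in pLVX_EV cells minus that in NT cells, in log2. Among genes of the stress response and amino acid supply, the line difference was larger in pLVX_EV for TRIB3 (2.36), DDIT4 (1.88), CTH (1.79), MTHFD2 (1.47), ASNS (1.46), SLC7A5 (1.26), SLC7A1 (1.18) and XBP1 (0.95). Among genes of mitosis and DNA synthesis it was smaller for TOP2A (-1.57), AURKB (-1.36), TYMS (-1.32), CENPM (-1.06), SMC4 (-0.92), MCM3 (-0.85), RFC3 (-0.65) and RFC4 (-0.53). TOP2A and AURKB averaged below background in pLVX_EV cells of both lines. Other genes with a larger value in pLVX_EV were VWF (2.43), GDF15 (2.24), TSC22D3 (1.87), BCAT1 (1.04), KLK3 (0.96), ME1 (0.84), CDKN1A (0.82), HLA-DMB (0.81), ADGRG6 (0.8), TRIM51 (0.69), AZGP1 (0.66), CDH1 (0.63), ASCL2 (0.61), TMPRSS2 (0.54), CT45A5 (0.53), RCC1 (0.51), GASK1B (0.5) and CT45A3 (0.48). Other genes with a smaller value were PHLDA1 (-3.34), SNAR-A1 (-2.4), ENO2 (-1.49), MAGEA4 (-1.36), EFNB2 (-1.24), FOS (-1.23), ID1 (-1.2), S1PR3 (-1.19), CTAG2 (-1.14), TFPI (-1.04), TMEFF2 (-1.0), PSME2 (-1.0), ID3 (-1.0), BCHE (-0.92), AMACR (-0.92), OR51E1 (-0.91), THBS1 (-0.76), RPS4Y2 (-0.64), RLN2 (-0.63), SLITRK3 (-0.56), RBPMS2 (-0.56), ORM1 (-0.53) and ACP3 (-0.47). Each combination of line and vector was 1 derived population, and the cause of these differences was not tested.

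Between the arms, with the line difference with R1881 minus that with ethanol in brackets, the value was lower with R1881 for ORM1 (-1.84), ORM2 (-1.54), TRIM51 (-1.41), TMPRSS2 (-1.11), PLPP1 (-0.87), KLK3 (-0.74), KLK2 (-0.72) and RLN1 (-0.72). It was higher for FOS (1.73), SLITRK3 (1.2), UGT2B15 (0.82) and OPRK1 (0.8). FOS was set by the 2 ethanol-treated LNCaP pLVX_EV samples.

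Among the 8 samples of a line, 1 sample was flagged as apart from the rest for 5 genes. Chance alone picks about 1 in 20 groups, and many genes were described, so these 5 are not read as an excess. ASCL2 read 6.61 log2 in replicate 1 of the ethanol-treated LNCaP pLVX_EV cells, RBPMS2 6.56 in replicate 2 and THBS1 7.54 in replicate 1 of the R1881-treated LNCaP NT cells. EFNB2 read 7.85 in replicate 1 and FOS 7.21 in replicate 2 of the R1881-treated c42b pLVX_EV cells. Of these 5 values, EFNB2 alone was above the background of 7.80.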

How the results depend on the processing

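The line difference kept its count, 5084 genes, within 1.5 times under every alternative but a size limit, with 323 genes at 1 log2 or more. The remaining counts ran from 3957 without covariates to 5735 with 16 group means over all 32 samples. Without each sample in turn the line difference called 4818 to 4979 genes, the line difference in NT cells 3411 to 4131, the line difference in pLVX_EV cells 3482 to 4089, the line difference with R1881 3165 to 3894 and the line difference with ethanol 3311 to 3918. The line by vector interaction called 1355 genes, 1055 to 1254 without each sample in turn and 2174 with brighter probes only. Median centring in place of quantile normalization shifted its split from 677 larger and 678 smaller in pLVX_EV to 392 and 743 (34.5% larger). The line by arm interaction called 46 genes, 28 with normexp background correction, 79 with brighter probes only, and 29 to 40 without each sample in turn, the lowest without replicate 2 of the R1881-treated c42b NT cells. The causes were not tested.

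The replicate numbers of the labels did not pair the samples, since same-numbered deviations correlated at -0.204 to 0.198 over 28 pairs of groups (median -0.00487). With the replicate block the line difference called 5033 genes, the line by vector interaction 1314 and the line by arm interaction 43.

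Across the genes described and the alternatives that left out no sample, 1297 values kept their direction and side of the threshold, 27 came to pass it, 13 no longer passed and 2 reversed. ID3 (-0.06) and TMPRSS2 (0.05) reversed in the samples with the GABPA vectors, an alternative added after the data were seen. Their main differences were 1.15 and -0.41. Without covariates the calls of AURKB, TOP2A, CENPM, ORM1, ORM2, SLC45A3, GABPB1, GDF15, TRIB3 and TMPRSS2 were lost at the same difference, that of TMPRSS2 also with normexp. In the samples with GABPA vectors FOXA1 (-0.12) and GDF15 (-0.35) kept their direction and lost the call. Among genes that did not pass, KLK3, FKBP5, TYMS, FOS, MYC, DDIT4 and PHLDA1 passed with 8 or 16 group means, FOLH1 with 16 group means or the replicate block, KLK3, FKBP5, TYMS and FOS with median centring, KLK3 and FKBP5 with brighter probes only, KLK3 without the repeat array, and KLK2 (0.99), KLK3 (0.67), DDIT4 (0.68) and SNAR-A1 (-0.83) in the samples with GABPA vectors. KLK3, FKBP5, FOLH1, TYMS, FOS, MYC and ERG passed when particular samples were left out, KLK3 without replicate 1 or 2 of the R1881-treated NT cells of either line or replicate 1 of the ethanol-treated LNCaP NT cells (0.42 to 0.47).

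With 2 samples per group and 1 derived population per line and vector, the arrays limit the precision, at a median SE of 0.0757 log2. Probes near the background of 7.80 understate differences.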
